A study of Arabidopsis thaliana with 12 samples.

Results

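Transcripts of 10 repressing auxin response factor (ARF) genes were followed in whole Arabidopsis thaliana seedlings of 2 genotypes, with or without a short auxin treatment. The genes were taken by their locus codes from the 37336 genes of the deposited count table, and all 10 were present and passed the count filter, among 21376 genes tested. They were ARF1 (AT1G59750), ARF2 (AT5G62000), ARF3, also called ETTIN or ETT (AT2G33860), ARF4 (AT5G60450), ARF9 (AT4G23980), ARF11 (AT2G46530) and ARF18 (AT3G61830) of class B, and ARF10 (AT2G28350), ARF16 (AT4G30080) and ARF17 (AT1G77850) of class C.

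The 12 libraries fell into 4 groups of 3. They were er erl2 double mutants (alleles er-105 and erl2-1) given 1 uM IAA (indole-3-acetic acid, a natural auxin), er erl2 mutants given mock, wild type given IAA and wild type given mock. Every group shared the Col-0 background, an age of 3 days after germination, 30 min of treatment in liquid medium and 0.02% dimethyl sulfoxide. ER and ERL2 encode receptor kinases of the ERECTA family. How many seedlings each library pooled, and whether replicates came from separate cultures, is not given in the sources used here, so p-values measure the spread between these libraries, which may be technical.

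ARF proteins bind auxin response elements in promoters and set how strongly the genes there respond to auxin. Class A members activate such genes. Class B and C members mostly repress them, in part by recruiting co-repressors of the TOPLESS family. Class B members compete with the activators for the same DNA elements. Several repressing ARF transcripts are themselves cut by small RNAs. Class C transcripts are targets of the microRNA miR160, and ARF2, ARF3 and ARF4 are targets of trans-acting small RNAs made from TAS3 transcripts.

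The pairing of these small RNAs with the ARF transcripts is shown because it splits the 10 genes into groups that the expression data can be set against. All sequences are from RefSeq, build TAIR10.1, written 5′ to 3′. In each guide, capitals mark its bases 2 to 8, and in each site they mark the bases opposite those. The mature miR160 of 21 bases was the same at the 3 loci MIR160A, MIR160B and MIR160C.
miR160, as at MIR160A, chr2:16340282-16340302, plus strand: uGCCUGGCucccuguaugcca
ARF10 site, chr2:12115741-12115761, plus strand: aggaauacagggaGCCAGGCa
ARF16 site, chr4:14704141-14704161, minus strand: ggguuuacagggaGCCAGGCa
ARF17 site, chr1:29274189-29274209, plus strand: uggcaugcagggaGCCAGGCa
The ARF10 site had 2 mismatches to miR160 and no G:U pair. The ARF16 site had 2 mismatches and 1 G:U pair, and the ARF17 site had 1 G:U pair alone. In the 7 class B transcripts the best window for miR160 had 8 or 9 unpaired or G:U positions.

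The window of the TAS3A transcript closest to full pairing with both ARF3 and ARF4 was found by comparing every stretch of 21 bases. Whether the mature small RNA starts at exactly this base was not tested.
TAS3A window, chr3:5862205-5862225, plus strand: uUUCUUGAccuuguaagaccc
ARF2 site, chr5:24913262-24913282, plus strand: gggucuugcaaggUCAAGAAu
ARF3 site, chr2:14325941-14325961, minus strand: gggucuugcaaggUCAAGAAa
ARF4 site, chr5:24309507-24309527, minus strand: gggucuugcaaggUCAAGAAa
The ARF3 and ARF4 sites had 1 G:U pair and were otherwise fully paired, and the ARF2 site had 1 mismatch and 1 G:U pair. ARF3 and ARF4 each held a further site with 2 unpaired or G:U positions, and the next best window in ARF2 had 7. In the other class B and class C transcripts the best window had 7 to 9 such positions. ARF9, ARF11, ARF18 and ARF1 thus had no close match to either guide.

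**Figure D1:**
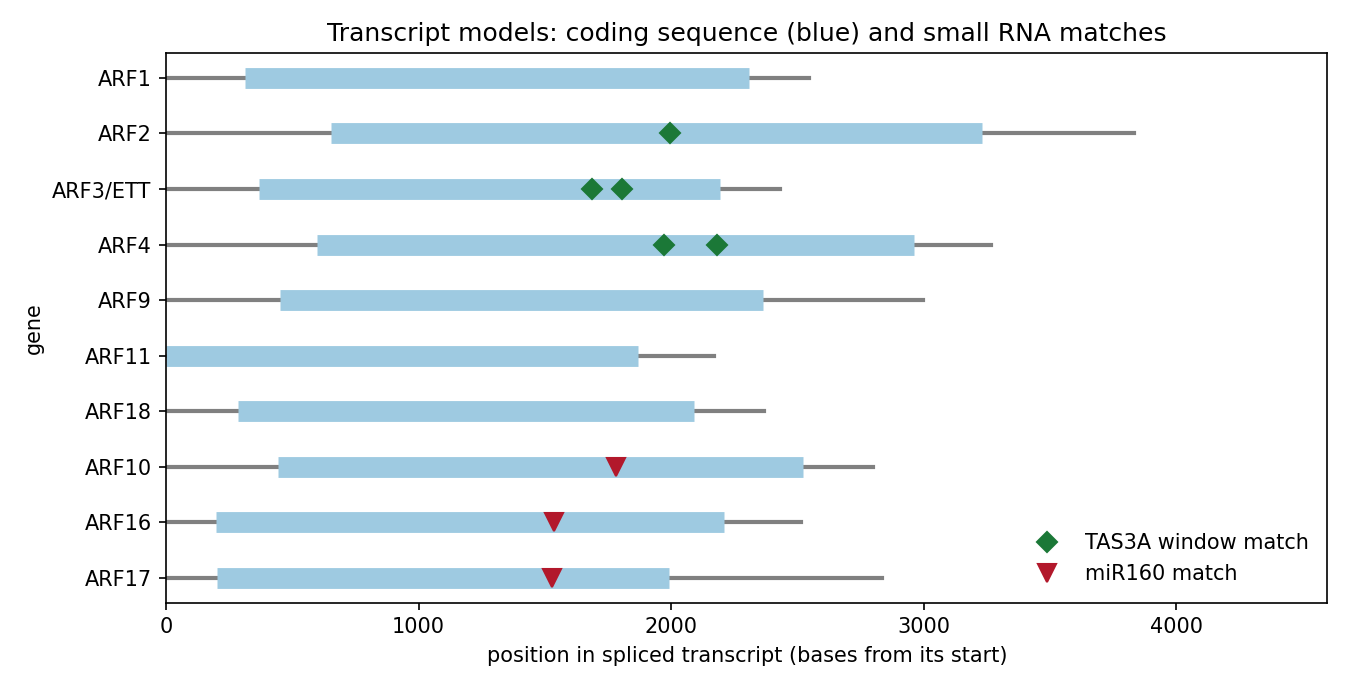
Transcript models of the 10 genes, with position in bases from the transcript's start on the horizontal axis, coding sequence as blue bars and untranslated parts as grey lines. Red triangles mark the best miR160 match and green diamonds the TAS3A window matches, drawn where at most 3 positions were unpaired or G:U. All drawn sites lie in coding sequence, 1 in each class C transcript, 1 in ARF2 and 2 each in ARF3 and ARF4.

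Facts of the whole table that bear on these genes are as follows. Totals ran from 28930625 to 35837999 counts per library. ER counts were 159 to 310 in the 6 er erl2 libraries, against 1636 to 1973 in the 6 wild-type libraries, and ERL2 counts were 73 to 142 against 287 to 414, so the genotype labels held for both genes. IAA19, an early auxin-induced gene, averaged 105 ± 22.6 CPM with IAA and 14.8 ± 2.57 CPM with mock in er erl2, and 112 ± 8.71 CPM with IAA and 22.5 ± 3.35 CPM with mock in wild type (SD, n = 3). CPM is the count relative to library size, in the usual unit, after TMM scaling of the libraries to each other. Of the whole-seedling markers, all 7 (cotyledon, root, root cap and shoot apex) were detected in every library. The floral regulator AG had 0 to 2 counts in a library, the petal and stamen regulator AP3 had 4 to 12, and the seed storage genes At2S1 and CRA1 had 7 to 43 and 0 to 20.

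Per length, the 10 transcripts spanned a 56.5-fold range of mean level, from 72.2 CPM per kilobase of exon for ARF2 to 1.28 for ARF11. ARF2, which limits organ growth and promotes leaf senescence, made up 49.1% ± 1.99 of the summed per-length level in er erl2 with IAA, 48.5% ± 1.73 in er erl2 with mock, 46.2% ± 0.795 in wild type with IAA and 47.1% ± 0.626 in wild type with mock (SD, n = 3). ARF1, its close relative, followed at 29.1 on the same per-length scale. Both stood above the next gene in all 12 libraries, with ranges that did not meet.

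ARF4, which acts with ARF3 in the identity of the lower leaf surface, averaged 12.01 per length, ARF10 averaged 9.59 and ARF16 averaged 8.41. These neighbours were not fully ordered. ARF4 exceeded ARF10 in 9 of 12 libraries, and ARF10 exceeded ARF16 in 7 of 12. ARF16 stood above ARF9, at 5.96, in every library. ARF9 exceeded ARF3, at 5.10, in 8 of 12 libraries. ARF3 exceeded ARF17, at 4.03, in all 12 although their ranges overlapped across libraries, and ARF17 exceeded ARF18, at 3.55, in 8 of 12. ARF11 was the lowest in every library, with 66 to 154 raw counts, so its values carry the largest counting error of the 10.

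**Figure D2:**
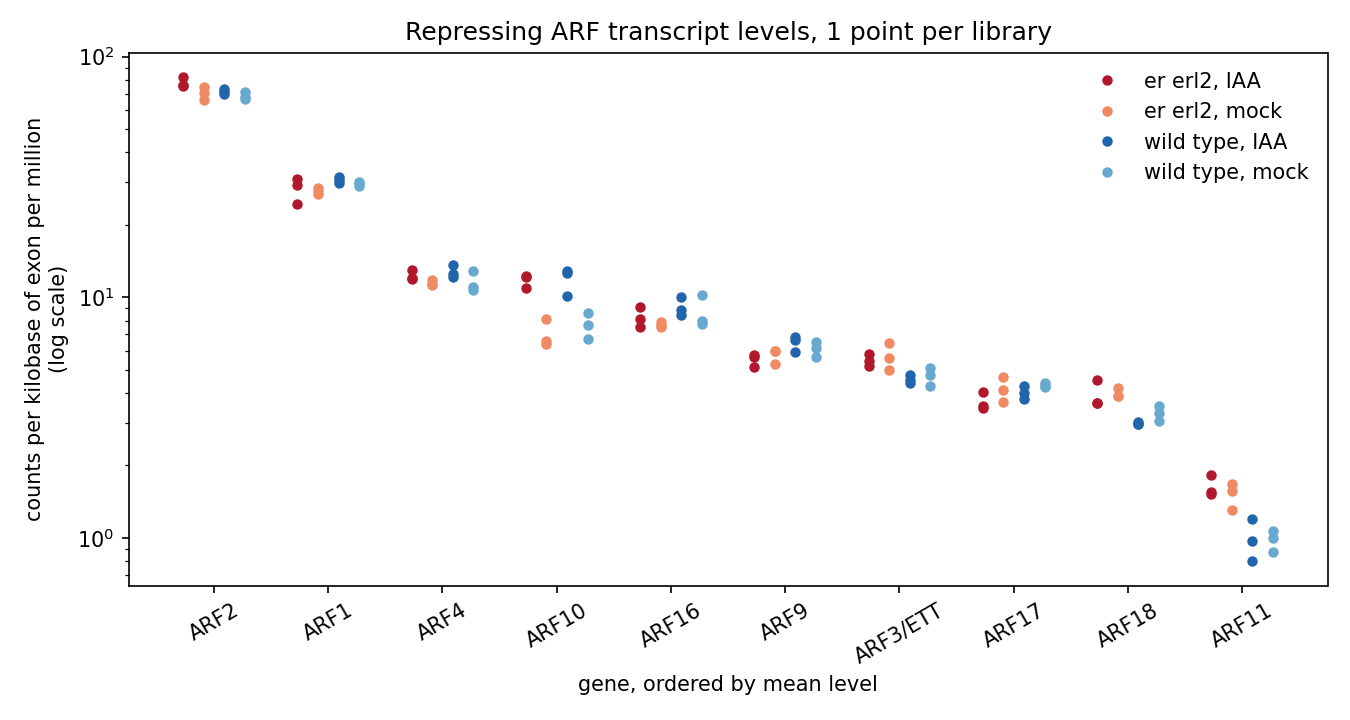
Per-length transcript level (CPM per kilobase of exon, log axis) of each gene, with 1 point per library and groups in colour. ARF2 stands highest at a mean of 72.2 and ARF11 lowest at 1.28, and the points of ARF10 split by treatment while those of ARF11 and ARF18 split by genotype.

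The summed per-length level of the 10 repressing genes was 158 ± 4.28 in er erl2 with IAA, 146 ± 3.84 in er erl2 with mock, 155 ± 1.31 in wild type with IAA and 146 ± 3.53 in wild type with mock (SD, n = 3). The 5 activating ARF genes (ARF5, ARF6, ARF7, ARF8 and ARF19) summed to 67.6 ± 5.45, 69.1 ± 1.12, 76.7 ± 5.28 and 72.3 ± 4.98 in the same 4 groups. The ratio of repressing to activating transcripts was 2.26 to 2.50 in er erl2 with IAA and 2.05 to 2.20 in er erl2 with mock. It was 1.93 to 2.21 in wild type with IAA and 1.92 to 2.10 in wild type with mock. The 3 er erl2 libraries with IAA lay above every other library in this ratio, and the other 3 groups overlapped. The highest ratio came from er erl2 IAA replicate 3, which had the lowest activating sum of all libraries, 61.3. Differences in this ratio between the groups were not tested. The 8 remaining class B genes, ARF12 to ARF15 and ARF20 to ARF23 on chromosome 1, stood outside this sum. ARF20 had at most 7 counts in a library and ARF12 at most 1, and the other 6 had 0 counts in all 12 libraries. Of these 8 genes, 7 share stretches of 50 bases with another ARF transcript, so their counts are uncertain. None of the 10 genes described here (0) shares such a stretch with another ARF, and ARF1 alone overlaps a neighbour, AT1G59760 on the opposite strand.

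The first comparison asks how 30 min of IAA changed these transcripts. ARF10, a class C repressor needed with ARF16 for root cap formation, was higher with IAA in both genotypes, and was the 1 gene of the 10 called. A gene is called when its p, from edgeR's quasi-likelihood test with Benjamini-Hochberg adjustment over all genes tested, is under 0.05. Over all genes, 2.65% were called for the IAA effect averaged over the genotypes, 1.53% in er erl2 and 1.21% in wild type. The share called higher was 1.94% in the averaged effect, 1.29% in er erl2 and 1.06% in wild type, and the share called lower was 0.711%, 0.243% and 0.154%. The median log2 fold change of the 10 genes was 0.05 in the averaged effect, against -0.003 for all genes tested.

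ARF10 had 1095, 1050 and 1075 raw counts in the er erl2 libraries with IAA, against 602, 570 and 853 in the er erl2 libraries with mock. In CPM these were 31.6, 35.2 and 35.7 with IAA and 18.6, 19.0 and 23.6 with mock. It had 991, 1256 and 1117 raw counts in wild type with IAA, or 29.4, 37.5 and 36.8 CPM, against 597, 660 and 740 in wild type with mock, or 19.4, 22.3 and 25.0 CPM. All 6 libraries with IAA lay above all 6 with mock. The highest mock value, in wild-type replicate 3, and the lowest IAA value, in wild-type replicate 1, came nearest to each other.

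The log2 fold change of ARF10 was 0.74 in er erl2 (SE 0.120, 95% interval 0.48 to 1.00, adjusted edgeR p 0.00415). In wild type it was 0.64 (SE 0.119, 95% interval 0.38 to 0.89, adjusted edgeR p 0.0159). Averaged over the genotypes it was 0.69 (SE 0.0845), a 1.61-fold increase, with an adjusted edgeR p of 0.000223. The averaged call and the er erl2 call held in all 12 fits that each left out 1 library. The wild-type call was lost without wild-type mock replicate 1 (0.55, adjusted edgeR p 0.0521), wild-type mock replicate 2 (0.64, 0.0808), wild-type IAA replicate 2 (0.57, 0.0703) and wild-type IAA replicate 3 (0.59, 0.0886).

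The other class C genes, which carry the same kind of miR160 site, did not pass the test. ARF16 averaged 20.7 ± 2.05 CPM with IAA and 19.3 ± 0.455 CPM with mock in er erl2, and 22.8 ± 2.12 CPM with IAA and 21.7 ± 3.45 CPM with mock in wild type (SD, n = 3). Its averaged log2 fold change was 0.09, with a 95% interval of -0.08 to 0.25. ARF17, which acts in adventitious rooting and pollen wall formation, averaged 10.9 ± 0.939 CPM with IAA and 12.3 ± 1.44 CPM with mock in er erl2. In wild type it averaged 11.9 ± 0.754 CPM with IAA and 12.8 ± 0.282 CPM with mock (SD, n = 3). Its averaged log2 fold change was -0.14, with a 95% interval of -0.29 to 0.02. The groups of both genes overlapped, and neither interval reached the lower bound of that of ARF10, 0.51. The difference in IAA response between ARF10 and ARF16 or ARF17 was not itself tested. ARF10 made up 48.9% to 50.3% of the summed per-length class C level in er erl2 with IAA and 33.9% to 41.7% in er erl2 with mock. In wild type it made up 44.4% to 49.6% with IAA and 35.3% to 39.1% with mock.

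**Figure D3:**
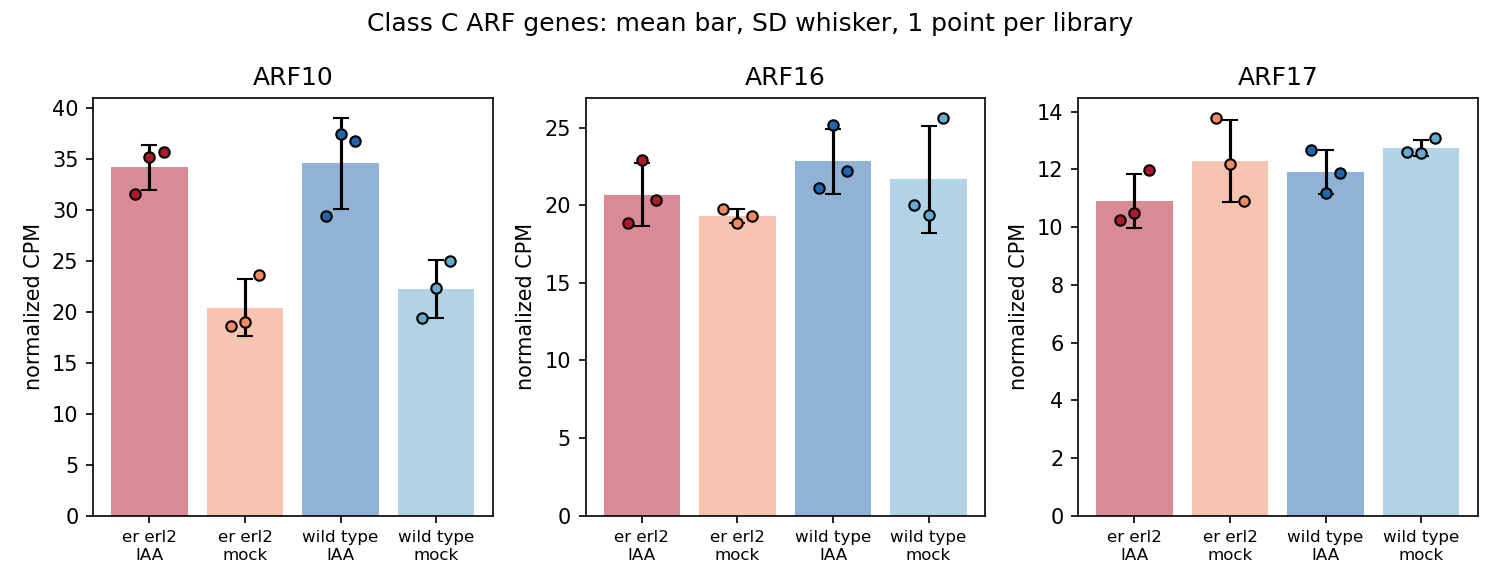
Normalized CPM of the class C genes ARF10, ARF16 and ARF17 in the 4 groups, with bars for the mean, whiskers for the SD and 1 point per library (n = 3 each). ARF10 lies between 29.4 and 37.5 CPM in the 6 IAA libraries and between 18.6 and 25.0 CPM in the 6 mock libraries, whereas the IAA and mock points of ARF16 and ARF17 overlap.

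None of the 7 class B genes (0) was called for IAA. At an unadjusted p under 0.05 there were 2 of them in the averaged effect, ARF2 and ARF4, and the DESeq2 Wald test called 0. Over all genes tested, 13.2% had an unadjusted edgeR p under 0.05 in that effect. The number of all genes that DESeq2 called in it is given in the closing section on processing. ARF4 averaged 40.3 ± 1.85 CPM with IAA and 37.4 ± 0.888 CPM with mock in er erl2, and 41.7 ± 2.59 CPM with IAA and 37.6 ± 3.67 CPM with mock in wild type (SD, n = 3). Its averaged log2 fold change was 0.13 (95% interval 0.02 to 0.24, adjusted edgeR p 0.287). ARF2 averaged 301 ± 14.7 CPM with IAA and 273 ± 16.9 CPM with mock in er erl2, and 278 ± 7.08 CPM with IAA and 266 ± 8.52 CPM with mock in wild type (SD, n = 3), for a log2 fold change of 0.10 (95% interval 0.01 to 0.19, adjusted edgeR p 0.289). For ARF4 and ARF2 the IAA and mock libraries separated in er erl2 and overlapped in wild type. How many of all genes separated in this way was not counted. Separation of groups of 3 libraries, here and below, therefore only describes the values. The other 5 class B genes had averaged log2 fold changes between -0.08 for ARF18 and 0.06 for ARF11. In wild type ARF18 lay at 7.70 to 7.86 CPM with IAA and 7.94 to 9.12 CPM with mock, which did not overlap, and in er erl2 its IAA and mock libraries overlapped. Among them the 95% interval was widest for ARF11, from -0.20 to 0.32, so changes in ARF11 within that range were not excluded.

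**Figure D4:**
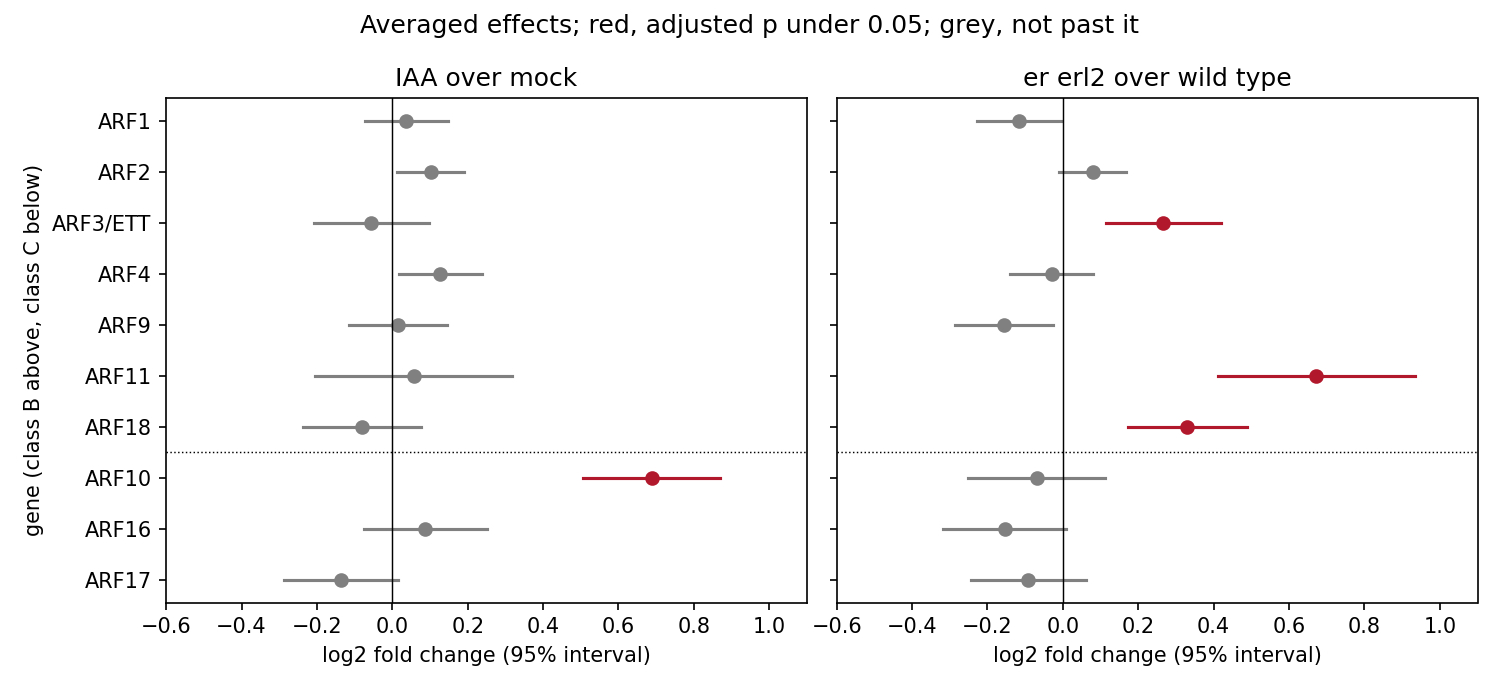
Log2 fold changes with 95% intervals for the 10 genes, averaged over genotypes for IAA over mock on the left and averaged over treatments for er erl2 over wild type on the right. Red marks an adjusted edgeR p under 0.05. On the left ARF10 alone is red, at 0.69, and on the right ARF11 (0.67), ARF18 (0.33) and ARF3 (0.27) are.

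Among the activating ARF genes the same test called 1 of 5 for IAA. ARF19, an activator of lateral root formation, averaged 40.5 ± 1.39 CPM with IAA and 24.7 ± 2.74 CPM with mock in er erl2, and 45.5 ± 3.75 CPM with IAA and 27.6 ± 2.91 CPM with mock in wild type (SD, n = 3). Its averaged log2 fold change was 0.72 (SE 0.0654, adjusted edgeR p 7.13e-06), beside the 0.69 of ARF10. ARF19 overlaps AT1G19210 on the same strand in the annotation, so its counts are uncertain. Of the small RNA pathway genes, edgeR tested 7 and called 0 for the averaged IAA effect, with 0 at an unadjusted p under 0.05 and 0 called by the DESeq2 Wald test. Over all genes tested, edgeR called 2.65%, and 13.2% had an unadjusted edgeR p under 0.05. The DESeq2 total is given in the closing section on processing. TAS3A averaged 9.91 ± 0.317 CPM with IAA and 9.32 ± 0.749 CPM with mock in er erl2, and 8.36 ± 0.749 CPM with IAA and 9.16 ± 1.27 CPM with mock in wild type (SD, n = 3). AGO7, the Argonaute that loads miR390 to start TAS3 processing, averaged 2.22 ± 0.278 CPM with IAA and 1.79 ± 0.301 CPM with mock in er erl2, and 1.86 ± 0.198 CPM with IAA and 2.38 ± 0.251 CPM with mock in wild type (SD, n = 3). IAA and mock libraries overlapped for TAS3A in both genotypes and for AGO7 in er erl2. In wild type the AGO7 libraries with IAA (1.72 to 2.09 CPM) lay below those with mock (2.23 to 2.67 CPM). The MIR160 and MIR390 loci were absent from the count table as received, so they could not be analysed. The TAS3 genes listed beside TAS3A did not pass the count filter.

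In libraries of whole seedlings, fewer cells of a type and less RNA per cell cannot be told apart. SMB, a root cap regulator and the 1 root cap marker listed, was at 0.704 to 1.39 CPM in er erl2 with IAA and 0.804 to 1.85 CPM in er erl2 with mock. In wild type it was at 0.712 to 1.25 CPM with IAA and 1.86 to 2.01 CPM with mock. Its IAA and mock libraries overlapped in er erl2 and did not overlap in wild type. Its averaged IAA effect of -0.69 was not past the threshold in edgeR (adjusted p 0.162) or the DESeq2 Wald test (adjusted p 0.0938). The root hair gene COBL9 was at 4.22 to 5.42 CPM with IAA and 4.30 to 7.66 CPM with mock in er erl2, which overlapped, and at 5.79 to 6.05 CPM with IAA and 7.49 to 12.1 CPM with mock in wild type, which did not. Its averaged IAA effect of -0.53 was not called by edgeR (adjusted p 0.0742) and was called by the DESeq2 Wald test (adjusted p 0.0130). It was called by edgeR without er erl2 mock replicate 2 (-0.63, adjusted p 0.0116) and without wild-type mock replicate 1 (-0.61, adjusted p 0.0230). In wild type alone the COBL9 effect was -0.71 (adjusted edgeR p 0.148, adjusted DESeq2 p 0.0350). COBL9 was the 1 marker of 8 tested that DESeq2 called for IAA, in the averaged effect and in wild type. The numbers of all genes that DESeq2 called in these effects are given in the closing section on processing. The summed level of the 3 root markers (CASP1, COBL9 and PIN2) was 68.0 to 81.1 CPM in er erl2 with IAA and 66.5 to 82.4 CPM with mock, and 63.3 to 79.8 CPM in wild type with IAA and 78.2 to 96.7 CPM with mock. None of these markers was at 0 in any library, and their part in the ARF10 result was not tested.

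The second comparison asks how the transcripts differed between er erl2 and wild type. ARF11, ARF18 and ARF3 were higher in er erl2, and 0 of the 10 genes were called lower, in the effect averaged over the treatments. Over all genes 27.8% were called in that contrast, 14.1% higher and 13.7% lower, so a share of 3 in 10 is near the background and says nothing particular about repressing ARF genes. The median log2 fold change of the 10 genes was -0.05, against -0.01 for all genes tested. By edgeR none of the class C genes (0 of 3) was called in this contrast, and 0 of them had an unadjusted p under 0.05. The DESeq2 Wald test also called 0 of 3. Its share over all genes is not given here, so that count cannot be set against a background. Over all genes tested, 38.9% had an unadjusted edgeR p under 0.05 in this contrast.

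ARF11 is a close relative of ARF18 and, like it, has no close match to either small RNA guide. Its raw counts were 146, 123 and 149 in er erl2 with IAA and 110, 88 and 66 in wild type with IAA. They were 115, 137 and 154 in er erl2 with mock and 84, 86 and 70 in wild type with mock. In CPM the 6 er erl2 libraries ran from 3.56 to 4.94 and the 6 wild-type libraries from 2.17 to 3.26, with no overlap. The averaged log2 fold change was 0.67 (SE 0.122, 95% interval 0.41 to 0.93, adjusted edgeR p 0.000963), which is 1.59-fold.

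Within treatments the ARF11 difference was 0.72 under IAA (SE 0.172, adjusted edgeR p 0.0127) and 0.63 under mock (SE 0.174, adjusted edgeR p 0.0244). Over all genes 14.0% were called under IAA, 7.14% higher and 6.84% lower, and 15.7% under mock, 8.40% higher and 7.33% lower. Of the 10 genes 2 were called under IAA, ARF11 and ARF18, and 1 under mock, ARF11, each higher. The call under IAA was lost without wild-type IAA replicate 3 (0.60, adjusted edgeR p 0.0544) and without er erl2 IAA replicate 3 (0.63, 0.0561). The call under mock was lost without wild-type mock replicate 3 (0.55, 0.0834), er erl2 mock replicate 2 (0.55, 0.0906) and er erl2 mock replicate 3 (0.61, 0.0780). The averaged call held without each of the 12 libraries.

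ARF18 had 326, 281 and 352 raw counts in er erl2 with IAA and 265, 258 and 234 in wild type with IAA. With mock it had 350, 300 and 365 in er erl2 and 264, 270 and 235 in wild type. The er erl2 libraries ran from 9.40 to 11.7 CPM and the wild-type libraries from 7.70 to 9.12 CPM, with no overlap. The averaged log2 fold change was 0.33 (SE 0.0736, 95% interval 0.17 to 0.49, adjusted edgeR p 0.00401), or 1.26-fold, and this call held without each of the 12 libraries. Under IAA the difference was 0.39 (adjusted edgeR p 0.0226). That call was lost without wild-type IAA replicate 2 (0.38, 0.0614), wild-type IAA replicate 3 (0.40, 0.0583) or er erl2 IAA replicate 3 (0.28, 0.0997). Under mock the difference of 0.27 was not past the threshold (adjusted edgeR p 0.0947), and it passed without er erl2 IAA replicate 3 (0.28, 0.0494).

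ARF3, the ETTIN factor of gynoecium and leaf polarity, had 515, 497 and 469 raw counts in er erl2 with IAA and 428, 458 and 394 in wild type with IAA. With mock it had 522, 430 and 673 in er erl2 and 422, 364 and 434 in wild type. It averaged 15.7 ± 0.904 CPM in er erl2 and 13.1 ± 0.501 CPM in wild type with IAA, and 16.4 ± 2.14 CPM in er erl2 and 13.5 ± 1.19 CPM in wild type with mock (SD, n = 3). The groups separated under IAA and overlapped under mock, where er erl2 replicate 3 was the highest library and er erl2 replicate 2 lay among the wild-type values.

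The averaged log2 fold change of ARF3 was 0.27 (SE 0.0712, 95% interval 0.11 to 0.42, adjusted edgeR p 0.0122), or 1.20-fold, and the call held without each of the 12 libraries. Within treatments it was 0.26 under IAA (adjusted edgeR p 0.105) and 0.27 under mock (adjusted edgeR p 0.0813), neither past the threshold. The mock difference passed without er erl2 mock replicate 2 (0.36, adjusted edgeR p 0.0398). Its partner ARF4, which shares the TAS3A sites, had an averaged difference of -0.03 (95% interval -0.14 to 0.08), and ARF2 had 0.08 (95% interval -0.01 to 0.17). ARF2 lay at 291 to 318 CPM in er erl2 and 270 to 285 CPM in wild type with IAA, with no overlap, and the genotypes overlapped with mock. The difference between ARF3 and ARF4 in this effect was not tested.

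**Figure D5:**
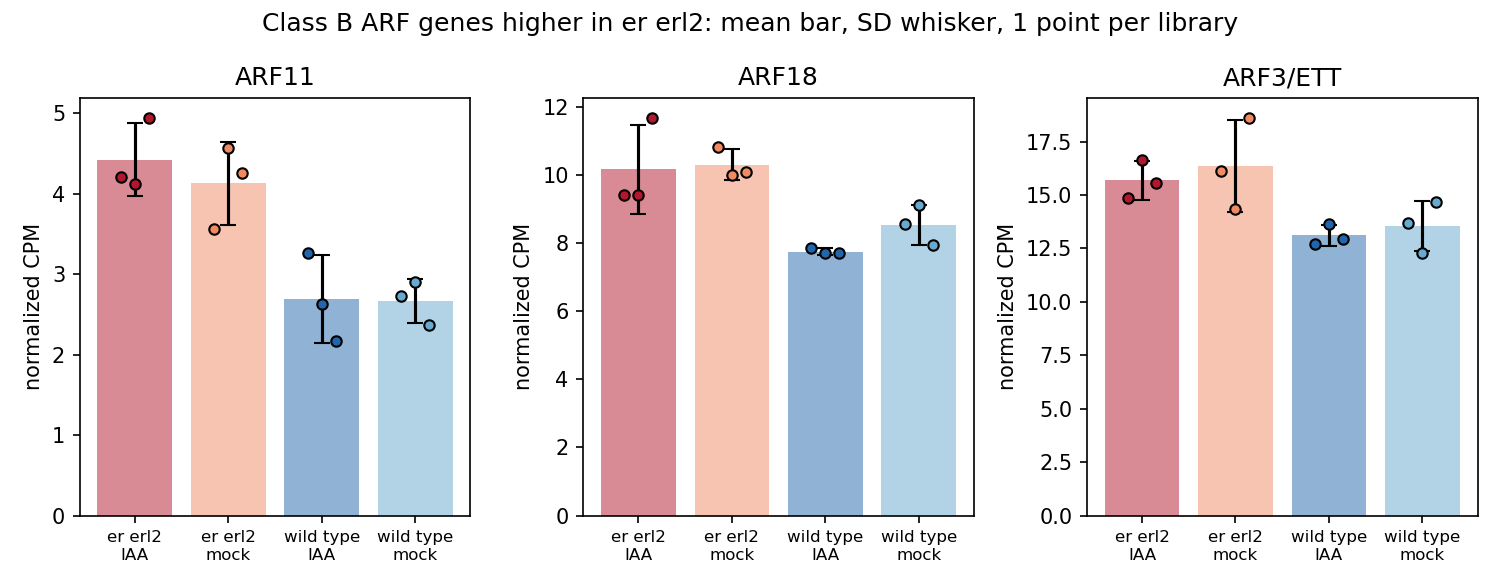
Normalized CPM of ARF11, ARF18 and ARF3/ETT in the 4 groups, with bars for the mean, whiskers for the SD and 1 point per library (n = 3 each). The er erl2 points lie above the wild-type points in both treatments for ARF11 and ARF18, and for ARF3 under IAA but not throughout under mock.

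ARF9, which acts in the early embryo, had the lowest averaged estimate of the 10 genes for er erl2 over wild type. It averaged 16.6 ± 0.993 CPM in er erl2 and 19.4 ± 1.43 CPM in wild type with IAA, with no overlap, and 17.2 ± 1.21 CPM in er erl2 and 18.3 ± 1.29 CPM in wild type with mock, with overlap (SD, n = 3). The difference under IAA was -0.23 (adjusted edgeR p 0.0948) and the averaged difference -0.16 (95% interval -0.29 to -0.03, adjusted edgeR p 0.0715), neither past the threshold. ARF1 had an averaged difference of -0.12 (adjusted edgeR p 0.109), which passed without er erl2 IAA replicate 2 (-0.14, adjusted edgeR p 0.0463). With mock, ARF1 lay at 69.6 to 74.1 CPM in er erl2 and 75.6 to 78.7 CPM in wild type, with no overlap. With IAA its genotypes overlapped. For ARF16, ARF17 and ARF10 the averaged differences were -0.15, -0.09 and -0.07, and none was past the threshold.

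Genes that act with the repressing ARFs were counted in the same contrast, in which 14.1% of all genes were called higher and 13.7% lower. These lists were chosen with earlier results of these data known, so their counts say nothing particular about the families. Of the 5 TOPLESS family co-repressors, 4 fell in er erl2 in the averaged effect and 0 rose. TPR3 fell by 0.56 (SE 0.0594, adjusted edgeR p 8.34e-06), TPL by 0.28 (adjusted edgeR p 0.000334) and TPR1 by 0.24 (adjusted edgeR p 0.000382). TPR2 fell by 0.15 (adjusted edgeR p 0.0299), and its call was lost in 6 of the 12 fits without 1 library (adjusted edgeR p 0.0582 to 0.0772), those without er erl2 IAA replicate 3, er erl2 mock replicates 2 and 3, wild-type IAA replicates 2 and 3 and wild-type mock replicate 1. TPL, TPR3 and TPR4 overlap other genes in the annotation, so their counts are uncertain. TPR4 had 0.13 and did not pass. Of the 5 activating ARF genes 2 fell, ARF5 by 0.26 (adjusted edgeR p 0.0192) and ARF7 by 0.22 (adjusted edgeR p 0.0159). Both overlap a neighbour, and the ARF7 call was lost without wild-type IAA replicate 3 (-0.18, adjusted edgeR p 0.0502).

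Of the 7 small RNA pathway genes tested, 3 rose in er erl2 and 0 fell, beside 14.1% of all genes called higher and 13.7% lower. SGS3, which protects TAS3 fragments for conversion to double-stranded RNA, had 1030 to 1167 counts in er erl2 and 252 to 303 in wild type with IAA, and 1061 to 1320 in er erl2 and 222 to 262 in wild type with mock. Its averaged log2 fold change was 2.06 (SE 0.0542, adjusted edgeR p 1.29e-12), or 4.17-fold. RDR6, the polymerase that acts with SGS3, rose by 0.20 (adjusted edgeR p 0.00384). AGO1, the main Argonaute for miR160, rose by 0.11 (adjusted edgeR p 0.0383), and its call was lost in 9 of the 12 fits without 1 library (adjusted edgeR p 0.0502 to 0.0908). It held without er erl2 IAA replicate 3, wild-type IAA replicate 3 or wild-type mock replicate 1. TAS3A (0.14, adjusted edgeR p 0.240) and AGO7 (-0.07, adjusted edgeR p 0.722) did not pass.

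Large genotype differences were also counted in the chromosomal neighbourhood of these genes. In the averaged effect, 3.65% of the 21295 nuclear genes tested passed the threshold with a log2 difference of 1 or more in size. Among the 100 nearest tested genes the count was 2 for ARF11, 2 for ARF18 and 2 for ARF3. It was 11 for SGS3 and 14 for TPR3, both on chromosome 5. The part of the neighbourhood in the SGS3 and TPR3 differences was not tested.

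Cotyledon markers moved with the genotype as well. The summed level of RBCS1A and LHCB3 was 18109 to 19431 CPM in er erl2 and 15672 to 17324 CPM in wild type with IAA, and 17368 to 18033 CPM in er erl2 and 14917 to 16359 CPM in wild type with mock. Both genes rose in the averaged effect, RBCS1A by 0.17 (adjusted edgeR p 0.00927) and LHCB3, which overlaps a neighbour, by 0.19 (adjusted edgeR p 0.00288). Of the 3 root markers COBL9 fell by 0.46 (adjusted edgeR p 0.0275), although the libraries of the genotypes overlapped. The other root markers did not pass, with CASP1 at 0.10 (adjusted edgeR p 0.548) and PIN2 at -0.09 (adjusted edgeR p 0.715). The root cap marker SMB, at -0.22 (adjusted edgeR p 0.503), did not pass either. The STM level, marking the shoot apex, was 1.59 to 2.14 CPM in er erl2 and 1.40 to 1.75 CPM in wild type with IAA, and 1.33 to 1.74 CPM in er erl2 and 1.22 to 1.69 CPM in wild type with mock. None of these markers was at 0, and their part in the ARF11, ARF18 and ARF3 differences was not tested.

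The third comparison asks whether the IAA response depended on genotype. None of the 10 genes (0) was called for the interaction by edgeR, 0 had an unadjusted p under 0.05, and the DESeq2 Wald test called 0. Over all genes edgeR called 0 of 21376, or 0.00%, with 1279 at an unadjusted p under 0.05, and the DESeq2 Wald test called 16. The log2 response of ARF10 was larger in er erl2 by 0.10, with a 95% interval of -0.26 to 0.47. The same difference in response was 0.09 for ARF11 (-0.44 to 0.61), 0.12 for ARF18 (-0.20 to 0.43) and -0.02 for ARF3 (-0.32 to 0.29). Each of these intervals included 0, and with 3 libraries per group differences in response within them were not excluded.

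The promoters were searched for 2 spellings of the auxin response element, TGTCTC and TGTCGG, on both strands from 250 bases before to 50 after the annotated start in TAIR10.1. Of the 10 promoters, 1 held TGTCTC, that of ARF3 with 2 copies, and 0 held TGTCGG. Among all 27443 promoters of protein-coding genes 14.2% held TGTCTC and 5.12% held TGTCGG. The ARF10 window held neither spelling, which says only that these letters are absent from this window.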

How the data were processed

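RNA of whole seedlings was poly-A selected and made into stranded libraries, per the labels' protocols. The submitters' processing notes name the build TAIR10, bcl2fastq, STAR 2.7.6a and featureCounts 2.0.0, and strand setting and treatment of multiply mapped reads are not given in the sources used here. The authors deposited raw counts per gene, 1 column per library, and 0 columns were left unassigned. Counts were analysed with edgeR 4.0.16 (R 4.3.3), with filterByExpr (minimum count 10, minimum total 15), TMM scaling (factors 0.973 to 1.02), 1 mean per group over all 12 libraries, robust quasi-likelihood tests of 7 contrasts and Benjamini-Hochberg adjustment over 21376 genes. SE was the log2 fold change over the root of its F statistic. Of the 37336 locus codes, 37051 matched RefSeq TAIR10.1. Per-length levels used its exon bases, whose lengths and gene models may differ from those the authors counted on, so per-length levels are approximate. Depth was 28930625 to 35837999 counts per library, without molecular identifiers. The procedure was tested on simulated data for the averaged IAA effect alone, with no genotype effect simulated. The outcome is not given here, and the other contrasts were not tested in this way.

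All 10 genes are named. Other genes come from lists and are named when called in at least 1 contrast or when always named (TAS3A, AGO7, ER, ERL2, IAA19); markers and members of counted lists are named beside their counts. The members and lists were chosen with earlier results of these data known. Alternatives were DESeq2 size factors, no count filter, the DESeq2 1.42.0 Wald test, a replicate block and leaving out each library. Of 18 pairs of libraries with the same number in the sample titles, 0 had deviations from their group means that correlated over 0.1. The fits were therefore not blocked.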

Additional observations from a re-analysis of the deposited data

How the results depend on the processing

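Under the 4 processing alternatives, 226 of 232 values kept their direction and their side of the threshold or stayed within 1.5 times the count. These values were the numbers of genes called, both averaged effects of the 10 genes, and some other chosen estimates. They were not every estimate in every contrast. The DESeq2 Wald test called more genes for IAA, 617 in er erl2, 411 in wild type and 860 averaged, and 16 for the interaction, and it called the root marker COBL9 for averaged IAA (adjusted p 0.0130). The cause was not tested. Alternatives for the genes outside the 10 were chosen after seeing the data. With single libraries left out, genes called ran from 219 to 561 for IAA in er erl2, 164 to 337 for IAA in wild type, 1946 to 3216 for genotype under IAA, 2029 to 3482 for genotype under mock and 0 to 7 for the interaction. Repressing ARF genes called ran from 0 to 1 for IAA in wild type, 0 to 2 for genotype under IAA and 0 to 2 for genotype under mock. Among the estimates looked at, some that were not called changed sign. In the averaged IAA effect they were ARF9 (-0.013 to 0.048) and ARF11 (-0.026 to 0.13). In the averaged genotype effect it was ARF4 (-0.054 to 0.011). In the interaction, looked at only for ARF10, ARF3, ARF11 and ARF18, they were ARF3 (-0.10 to 0.088) and ARF11 (-0.042 to 0.25).

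By the replicate numbers of the sample titles, no pairing of the libraries was seen. The column headers of the deposited counts number some libraries otherwise, and pairing by those numbers was not tested. Correlations of same-numbered deviations ran from -0.175 to 0.0935, and a library correlated best with its own number in 14 of 36 checks. With the replicate block, genes called were 296 and 233 for IAA in er erl2 and wild type and 2590 and 2941 for genotype under IAA and mock. The calls of the 10 genes stayed at 1 for averaged IAA and 3 for averaged genotype, and AGO1 lost its call (adjusted edgeR p 0.0603). Counts of 66 to 154 limit ARF11.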
